A study of Mus musculus with 2 samples.

Results

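The genes Prdm1, Prdm14, Dppa3, Nanos3, Tfap2c, Ifitm3 and Dnd1 were followed here as a set of germ cell specification genes. They were taken by symbol from the deposited gene table and are 7 of its 32285 genes. Every accessibility peak within 50000 bp of the transcription starts that table gives for them was taken with them, which gave 171 of 229480 peaks. Both assays came from the same nuclei of pooled mouse embryos at embryonic day 7.0 (E7.0), the stage of gastrulation, with 1 nuclear RNA library and 1 chromatin accessibility library. No treatment or genotype contrast was given, the pooled embryos cannot be told apart, and no barcode could be tied to 1 embryo. Part of the labels (title, age, protocol) describe E7.0 embryos. The tissue entries named the 8th section of the small intestine for the RNA library and Distal colon for the accessibility library, with Goblet cells as the cell type and RedMUC298trTg as the strain of both. Of the list of 8 goblet and intestinal epithelium genes, the goblet cell genes Muc2, Tff3, Spink4, Zg16, Fcgbp and Clca1 had 5 to 39 UMIs (counted RNA molecules) each over all kept nuclei. Vil1, which other absorptive epithelia also express, held 3994 of the 4295 UMIs of the list, and Cdx1 165. The epiblast gene Dnmt3b had 115214 and the visceral endoderm gene Cubn 212385, so the defining goblet cell genes were near 0 while embryo genes were abundant. The strain could not be checked.

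Germ cells of the mouse are set aside from the posterior epiblast around gastrulation, when signals of the BMP family from the extraembryonic ectoderm and WNT signals bring a few epiblast cells into a germ cell fate. Prdm1 (the repressor BLIMP1), Prdm14 and Tfap2c (the transcription factor AP2γ) form the core regulators of that step. Ifitm3 (fragilis) encodes a membrane protein of early germ cells and their precursors, Dppa3 (stella) a chromatin protein of oocytes, early embryos and committed germ cells, and Nanos3 and Dnd1 RNA-binding proteins needed for germ cell survival. Prdm1 and Tfap2c are not restricted to germ cells: Prdm1 also acts in endoderm and Tfap2c in trophoblast.

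The filter of at least 1000 UMIs, 500 genes and 1000 peak counts, at most 20% mitochondrial UMIs and no doublet call kept 12796 of 15341 barcodes. Their medians were 10471 UMIs and 9207.5 estimated accessible fragments. Levels are CPM (UMIs of a gene per 1000000 UMIs of the group) for RNA and FPM (estimated fragments, scaled in the same way to all fragments of the group) for peaks. With 1 library per assay there was no replicate check and no test was run. All intervals are exact 95% intervals (Poisson for levels and folds, Clopper-Pearson for shares) and cover counting error only. The limit given for a count of 0 is 3 counts over the total. Fewer cells of a type and less RNA per cell cannot be told apart in a summed level, and RNA free in the droplets can give a UMI in a nucleus that does not express a gene. Member RNA was read in classes made from accessibility clusters without the member peaks, and member peaks in classes made from RNA clusters without the member genes. A class was named ("-like") from marker genes that included no member.

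Promoter sequences (250 bp before to 50 bp after the start) were found in the RefSeq table of GRCm38.p6 for 3 of the 7 members. They are shown because no usable sequence was at hand for the other members, and the capitals mark CpG dinucleotides. Whether CpG content relates to accessibility was not tested. The Prdm1 sequence lies on the minus strand at chr10:44458699-44458998, that of Nanos3 on the minus strand at chr8:84176503-84176802 and that of Ifitm3 on the minus strand at chr7:141010695-141010994.
Prdm1: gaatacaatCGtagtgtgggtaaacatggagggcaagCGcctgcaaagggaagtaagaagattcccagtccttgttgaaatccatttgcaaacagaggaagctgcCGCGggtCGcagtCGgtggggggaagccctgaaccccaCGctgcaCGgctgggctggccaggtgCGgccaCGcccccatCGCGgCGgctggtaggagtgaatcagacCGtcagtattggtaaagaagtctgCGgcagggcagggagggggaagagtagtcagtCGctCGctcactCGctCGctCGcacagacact
Nanos3: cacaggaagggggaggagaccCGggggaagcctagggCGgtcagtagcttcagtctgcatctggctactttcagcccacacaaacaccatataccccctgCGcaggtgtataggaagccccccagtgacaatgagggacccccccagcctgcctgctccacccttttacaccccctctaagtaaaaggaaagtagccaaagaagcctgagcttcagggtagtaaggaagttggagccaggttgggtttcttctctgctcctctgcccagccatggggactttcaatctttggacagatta
Ifitm3: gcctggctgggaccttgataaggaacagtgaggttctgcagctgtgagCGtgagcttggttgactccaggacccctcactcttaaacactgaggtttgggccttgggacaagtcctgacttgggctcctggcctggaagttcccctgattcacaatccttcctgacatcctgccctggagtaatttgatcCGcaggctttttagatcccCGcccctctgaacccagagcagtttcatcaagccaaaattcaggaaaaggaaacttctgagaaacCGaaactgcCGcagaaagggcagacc
The Prdm1 promoter held 20 CpG dinucleotides and a G+C content of 59.7%. The Nanos3 promoter held 3 with 55.3% and the Ifitm3 promoter 5 with 53.0%, against medians of 7 and 52.7% over 32851 promoters of the table. Of the motifs searched on both strands (TCACACCT, GCCNNNGGC, ATGCAAAT, GGTCTCTAA, TAATCC and 2 forms of the interferon-stimulated response element), GCCNNNGGC, the consensus of AP2 factors, was matched in the Nanos3 promoter as GCCTAGGGC starting 221 bp before the start. That motif was in 16.6% of all promoters of the table. The interferon element, taken as GAAA, any 2 bases and GAAA again and searched in this form after the data had been seen, was matched in the Ifitm3 sequence, as GAAAAGGAAA from base 3 and as GAAACCGAAA from base 20 of the transcript. It was in 3.44% of all promoters, and the exact word first searched for that element in 0.253% and in none of the 3 sequences. The other motifs were in none of the 3 sequences. TCACACCT was in 1.27% of all promoters, ATGCAAAT in 1.74%, GGTCTCTAA in 0.256% and TAATCC in 7.06%.

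Prdm1 and Tfap2c were the abundant members, and the other 5 were scarce. Tfap2c had 6333 UMIs in 2280 of the kept nuclei and Prdm1 5653 in 2106. Ifitm3 had 1001 UMIs in 813 nuclei and Dnd1 429 in 382. Prdm14 had 135 UMIs in 114 nuclei, Nanos3 100 in 95 and Dppa3 63 in 57. The number of nuclei with a UMI thus ranged from 0.445% for Dppa3 to 17.8% for Tfap2c. A class taken as silent for each gene gave the background, and that silence was assumed, not tested. In visceral endoderm-like nuclei (1563 nuclei, median 12251 UMIs) a UMI was seen in 8.89% for Tfap2c, 4.03% for Ifitm3, 2.18% for Dnd1, 0.320% for Dppa3, 0.256% for Nanos3 and 0.192% for Prdm14. In extraembryonic ectoderm-like nuclei (1453 nuclei, median 12294 UMIs) 2.89% had a Prdm1 UMI. Shares at or near these values are read as background below.

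Among the named classes Prdm1 was highest in visceral endoderm-like nuclei, but low in parietal endoderm-like nuclei (15.8 CPM, 0.397-fold of the rest). It reached 105 CPM (95% interval 101 to 110) in visceral endoderm-like nuclei, 3.79-fold (3.594 to 4.002) over all other nuclei, and a UMI was seen in 51.8% of them. Of the 6 members with at least 10 UMIs observed or expected in that class, it was the 1 member past 2-fold upward, beside 11.3% of 17436 genes. Prdm14, Nanos3, Tfap2c and Ifitm3 were 2-fold lower, 4 of 6 beside 24% of genes. In anterior streak, node and definitive endoderm-like nuclei it stood at 87.6 CPM, 2.52-fold (2.35 to 2.70) over the rest. It and Nanos3 were the 2 of 6 members past 2-fold there, beside 6.22% of 16004 genes, and Tfap2c was 2-fold lower, beside 8.54%. Nanos3 had fewer than 10 UMIs expected and was counted only through those observed. That class joined 2 clusters that differed widely. The cluster with Cer1, Cadps2 and Lefty1 among its leading genes (394 nuclei) had 208 CPM (195 to 222), and the one with Chrd and the cilium gene Foxj1 among them (651 nuclei) had 8.39 CPM (6.35 to 10.9). An unnamed cluster of 457 nuclei with Sfrp5 among its leading genes had 185 CPM (175 to 195). The 2 visceral endoderm-like clusters also differed, at 78.0 CPM in 960 nuclei and 146 CPM (138 to 154) in 603 nuclei led by 6330411D24Rik and Arid3c. The lowest level was in extraembryonic ectoderm-like nuclei, at 3.21 CPM (2.47 to 4.11), and epiblast-like nuclei had 6.55 CPM. In the order of the classes, parietal endoderm, ectoplacental cone, embryonic mesoderm, haemato-endothelial and epiblast-like nuclei followed each other from 15.8 to 6.55 CPM, and no neighbours in that stretch differed beyond their intervals. Some classes further apart did. Parietal endoderm-like (12.9 to 19.2) and embryonic mesoderm-like nuclei (9.20 to 12.7) lay above the epiblast-like interval (5.72 to 7.45).

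Tfap2c was highest in trophoblast. It stood at 745 CPM (711 to 781) in ectoplacental cone and giant cell-like nuclei, where 137 of 140 nuclei had a UMI, 23.4-fold (22.1 to 24.7) over all other nuclei. Extraembryonic ectoderm-like nuclei had 163 CPM, 6.55-fold (6.23 to 6.88). In each of these 2 classes it was the 1 member past 2-fold upward, of 3 and of 6 with enough counts, beside 7.89% of all genes in the former and 8.3% in the latter. Prdm1 and Ifitm3 were 2-fold lower in the former, beside 20% of genes. Prdm1, Prdm14, Nanos3 and Ifitm3 were 2-fold lower in the latter, beside 24.4%. Extraembryonic mesoderm-like nuclei had 28.0 CPM (24.3 to 32.2), but 12.7 CPM (10.0 to 15.8) without the 122-nucleus RNA cluster described next, beside 13.5 CPM (11.6 to 15.5) in embryonic mesoderm-like nuclei. Anterior streak, epiblast, visceral endoderm, parietal endoderm and haemato-endothelial-like nuclei lay between 9.34 and 4.62 CPM, with no neighbours apart beyond their intervals. A UMI was seen in 8.34% (7.39% to 9.37%) of epiblast-like nuclei, close to the visceral endoderm-like share. The haemato-endothelial-like share was lower, 4.86% (2.54% to 8.33%), so the visceral endoderm-like share is not a floor for this gene. Among the genes whose level followed Tfap2c most closely over the 19 accessibility clusters were the gap junction gene Gjb5 (Pearson r 0.964) and 3830417A13Rik (0.958). For Prdm1 the 3 closest were Fgfrl1 (0.895), Ctsc (0.890) and Eda (0.885). These are descriptions over 19 clusters of 1 library on log2(CPM + 1).

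Prdm14, Ifitm3, Dppa3 and Dnd1 were raised in 1 accessibility class of 656 nuclei, extraembryonic mesoderm-like, with Foxf1, Pmp22 and Fendrr among its leading genes. Prdm14 reached 6.76 CPM there against 0.628 in all other nuclei, 10.8-fold (7.41 to 15.5). Ifitm3 reached 24.8 against 5.95 CPM, 4.17-fold (3.52 to 4.91). Dppa3 reached 1.55 CPM on 11 UMIs, 4.13-fold (1.94 to 8.01), and Dnd1 7.75 CPM, 2.87-fold (2.12 to 3.82). Nanos3 had 1.27 CPM on 9 UMIs, a fold of 1.93 (0.856 to 3.83). Of the 6 members with at least 10 UMIs observed or expected there, 4 were 2-fold higher, against 6.32% of the 14911 genes with such counts, and none was 2-fold lower, against 11%. Prdm14 and Dppa3 had fewer than 10 UMIs expected and were counted only through those observed, while Nanos3 at 9 was left out. The 4 of 6 thus depends in part on that filter, and nothing is read from it. Dppa3 in ectoplacental cone and giant cell-like nuclei (1.69 CPM on 4 UMIs) could not be told from the 1.55 CPM of this class.

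Those values changed with the clustering. In the class of that name made at resolution 2, the folds were 3.03 (1.52 to 5.48) for Prdm14, 1.06 (0.724 to 1.496) for Ifitm3, 0.515 (0.206 to 1.07) for Dnd1 and 0 for Dppa3, and the RNA clusters gave 3.26, 1.10, 0.554 and 0. The Dppa3 folds of 0 had intervals of 0 to 1.87 and 0 to 2.01 and could not be told from 1. The values of the class at resolution 1 also rested in part on few nuclei, which the RNA clusters set apart. An RNA cluster of 122 nuclei, 80 of them inside that accessibility class, 19 in epiblast-like and 23 in unnamed accessibility clusters, was left out of both sides. Then Dppa3 stood at 0.437-fold (0.0109 to 2.54), Dnd1 at 0.924 (0.512 to 1.54) and Prdm1 at 0.436 (0.354 to 0.531), in place of 1.42 for Prdm1 with it. Ifitm3 stood at 1.67-fold (1.26 to 2.17) and Prdm14 at 5.33-fold (3.05 to 8.87), and Prdm14 was then the 1 member past 2-fold. Nanos3 had its highest value in anterior streak, node and definitive endoderm-like nuclei at 1.78 CPM on 20 UMIs, 2.99-fold (1.73 to 4.93), and 1.82% of those nuclei had a UMI. That level could not be told from the 1.27 CPM of the extraembryonic mesoderm-like class (ratio interval 0.610 to 3.50), where 1 Nanos3 UMI was left without the cluster. None of 1453 extraembryonic ectoderm-like nuclei had a Nanos3 UMI, which allows a share of nuclei with a UMI of up to 0.206% and does not limit the share that express the gene.

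The levels by accessibility class and in the 122-nucleus cluster are plotted for each gene.

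**Figure D1:**
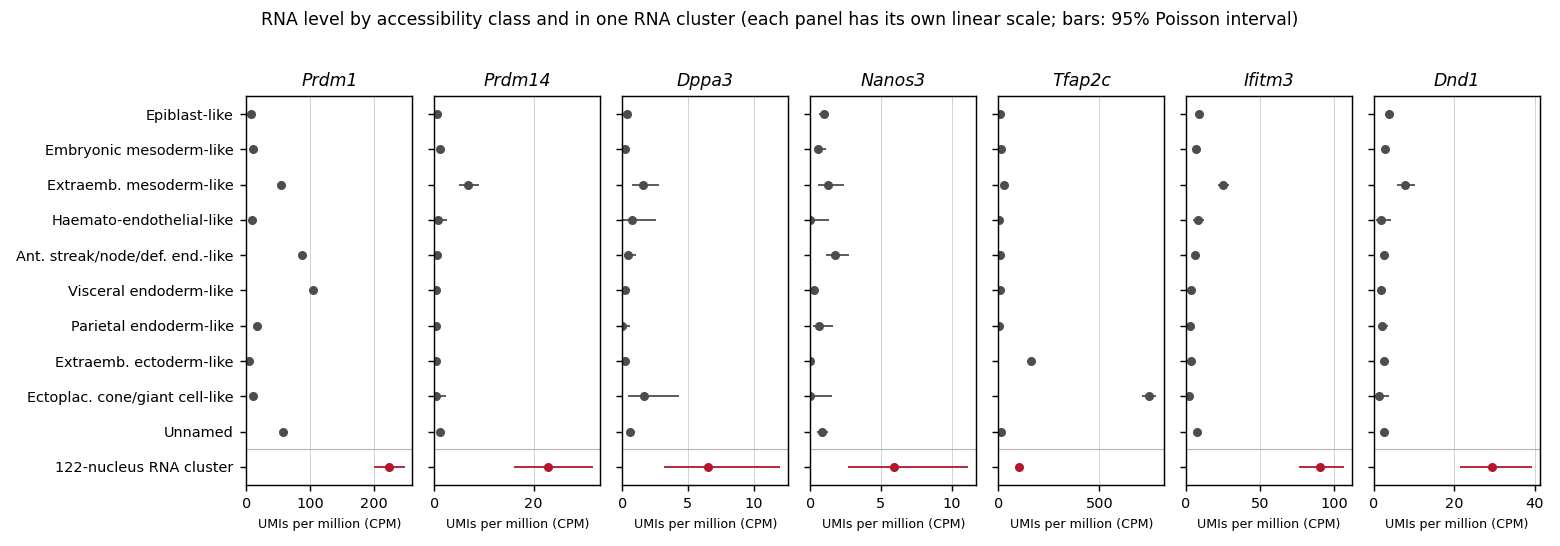
RNA level (CPM, linear axes that differ between panels) of each member in the accessibility classes (grey) and in the 122-nucleus RNA cluster (red), with bars for the 95% Poisson interval. Among the classes Prdm1 peaked in visceral endoderm and Tfap2c in trophoblast, at 745 CPM. The red points lie above every class for each gene except Tfap2c. For Prdm1 another RNA cluster, not drawn, stood at 242 CPM.

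Co-detection was counted next, as nuclei with at least 1 UMI of several members. No member was seen in 7812 nuclei, 1 in 4243 and 2 in 654. At least 3 were seen in 87 nuclei, 0.680% (0.545% to 0.838%), at least 4 in 22 and at least 5 in 8, and 1 nucleus had a UMI of all 7. The most frequent set of at least 3 was Prdm1 with Tfap2c and Ifitm3, in 30 nuclei. Prdm1 was in every one of the 22 nuclei with at least 4 members, and Ifitm3 in 21 of them. Co-detecting nuclei, meaning those with at least 3 members, were deeper than the rest, with medians of 14898 and 10445 UMIs. Among the 1154 barcodes called doublets, 4.33% (3.23% to 5.67%) co-detected at least 3 members. Thinned to 5000 UMIs, 25 of the 11187 nuclei deep enough co-detected (1609 were too shallow).

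The 122-nucleus RNA cluster, 0.953% of the kept nuclei, held 41 of the 87 co-detecting nuclei, 20 of the 22 with at least 4 members and all 8 with at least 5. It was picked out because it held more of them than any other cluster, so the member levels in it are a description. No other nucleus of the 12674 had 5 members, which allows a share of up to 0.0237%. After thinning, 19 of the 25 co-detecting nuclei were in the cluster. The median depth of its co-detecting nuclei was 11664 UMIs, close to the 11201 of its other nuclei. The 46 co-detecting nuclei outside, 0.363% of their nuclei, had a median of 16529. Within the cluster 19 nuclei had no member, 29 had 1 and 33 had 2. By accessibility class, 38 of the 87 were in extraembryonic mesoderm-like nuclei (5.79% of that class, 4.13% to 7.86%) and 33 of those 38 were of the cluster. That share of the 87, 43.7%, was 2.30% with accessibility clusters at resolution 2. By RNA class, 48 of the 87 (55.2%) were in primitive streak-like nuclei, which include the cluster, and 3 in extraembryonic mesoderm-like nuclei. By accessibility class, visceral endoderm-like nuclei held 11 (0.704%), epiblast-like 7 (0.227%), embryonic mesoderm-like 7 (0.558%), extraembryonic ectoderm-like 6 (0.413%), and unnamed clusters 14. No visceral endoderm or extraembryonic ectoderm-like nucleus had 4 members.

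**Figure D2:**
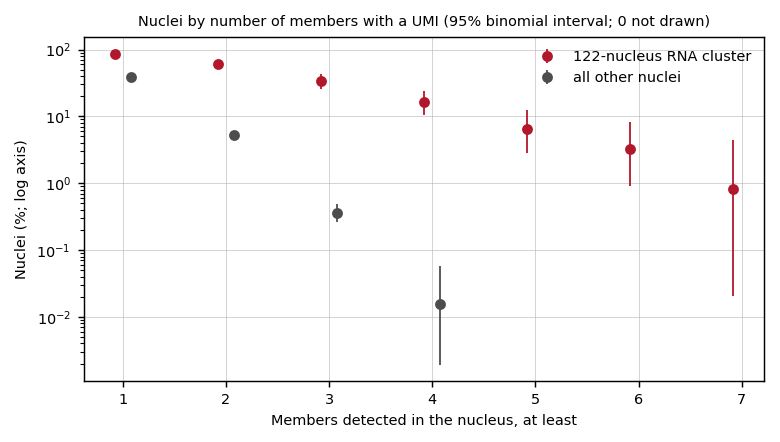
Share of nuclei (percent, log axis) with at least the given number of members detected, in the 122-nucleus RNA cluster (red) and in the 12674 other nuclei (grey), with 95% binomial intervals. At least 3 members were seen in 33.6% of the cluster and 0.363% of the other nuclei, and from 5 members on all nuclei were in the cluster.

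In the cluster Prdm1 stood at 223 CPM (200 to 248), with a UMI in 84 of 122 nuclei. That was above its visceral endoderm-like level and overlapped the interval of the Cer1 accessibility cluster. Another RNA cluster, of 355 nuclei with Cer1 among its leading genes, had 242 CPM of Prdm1 (227 to 258). In the 122-nucleus cluster Tfap2c stood at 101 CPM (86.1 to 119) in 58 nuclei, 2.37-fold over all other nuclei and below both trophoblast classes. Prdm14, the core regulator with the narrowest RNA here, stood at 22.9 CPM (16.0 to 31.9) in 24 nuclei, 33.0-fold (21.8 to 49.0), and 25.9% of all its UMIs were in this cluster. Ifitm3 stood at 90.3 CPM in 51 nuclei, 15.1-fold (12.5 to 18.1). Dnd1 stood at 29.5 CPM in 19 nuclei, 11.1-fold (7.93 to 15.1). Dppa3 had 10 UMIs in 7 nuclei, 17.8-fold (8.08 to 35.4), and Nanos3 9 UMIs in 8 nuclei, 9.33-fold (4.14 to 18.5). All 6 members with at least 10 UMIs observed or expected were past 2-fold, where 5.06% of 11339 genes were, but the cluster was picked for its members and nothing is read from that share. The detected Dppa3 nuclei of the cluster all had a Prdm1 UMI, 7 of 7. Prdm14 was seen with Dppa3 in 4 nuclei of the cluster and with Nanos3 in 3.

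The comparison was repeated at equal depth. Thinned to 5000 UMIs, Prdm1 was detected in 52.9% of the cluster and 10.3% of the other nuclei, Tfap2c in 31.4% and 11.3%, Ifitm3 in 19.8% and 2.95%. Dnd1 was detected in 11.6% and 1.26%, Prdm14 in 10.7% and 0.316%, and Dppa3 and Nanos3 each in 2.48% of the cluster, against 0.208% and 0.253%. The last values stand for 3 nuclei each. Outside the cluster and unthinned, Dppa3 was seen in 0.394% of nuclei and Ifitm3 in 6.01%, beside the visceral endoderm-like 0.320% (0.104% to 0.745%) and 4.03% (3.11% to 5.13%). The Dppa3 share over all nuclei outside the cluster thus lay inside the background interval. In ectoplacental cone and giant cell-like nuclei, none of them in the cluster, it was 2.86% (0.784% to 7.15%), above that interval, on 4 nuclei.

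**Figure D3:**
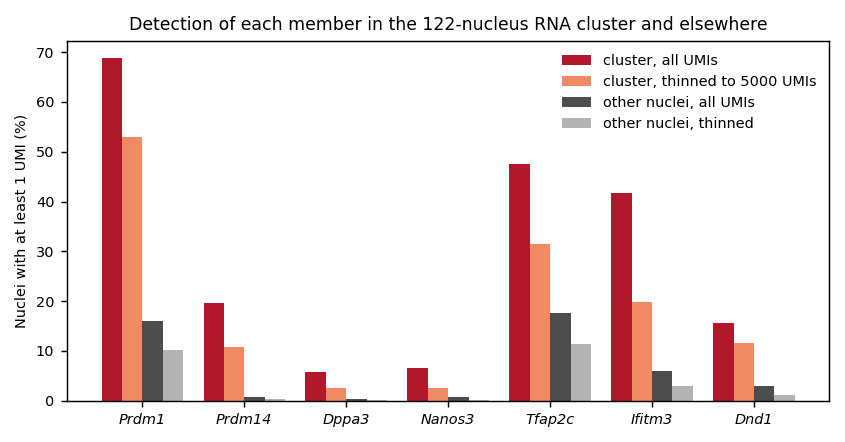
Share of nuclei with at least 1 UMI of each member in the 122-nucleus RNA cluster (red, and orange after thinning to 5000 UMIs) and in all other nuclei (dark grey, and light grey after thinning). Prdm1 was detected in 68.9% of the cluster and 15.9% of the other nuclei, and thinning left every member more often detected in the cluster.

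Primitive streak markers taken as a sum were higher in the cluster than elsewhere, and the markers of several other lineages were lower. The 8 streak markers summed to 1027 CPM against 409 in all other nuclei, 2.51-fold (2.39 to 2.64), and the naming rule called it primitive streak-like, with no streak marker among its 10 leading genes. Those were Olfr539, Igfbp3, Ano5, Syne1, Ifitm3, Trim67, Irgm1, Rnf213, Scml2 and Isl1. By the naming rule 5 of the 8 streak markers were raised, meaning 1.5-fold on at least 50 UMIs. The streak gene T stood at 307 CPM against 36.4 and Fgf8 at 288 against 71.9, and together they held most of the 1027 CPM. The germ cell list without the members (Kit, Alpl, Dppa5a, Tcl1, Esrrb, Ifitm1, Lin28a, Sall4, Nanog and Cbx7) summed to 887 CPM against 632, 1.40-fold (1.33 to 1.48), with Tcl1 at 0. Its genes did not all go the same way. Ifitm1 had 140 CPM against 25.7, but Esrrb 5.24 against 26.4. The 8 epiblast markers were lower, at 0.522-fold, but still summed to 849 CPM. Extraembryonic ectoderm (0.484), parietal endoderm (0.523), visceral endoderm (0.170), anterior streak (0.318), haemato-endothelial (0.198) and anterior ectoderm markers (0.264) were lower too. Embryonic mesoderm markers summed to 256 CPM against 231 and extraembryonic mesoderm markers to 119 against 121, with Pitx1 and Postn at 0. The 8 ectoplacental cone and giant cell markers summed to 63.5 CPM against 62.7, 1.01-fold (0.821 to 1.24), with Prl2c2, Tpbpa and Ctsq at 0. The 6 decidua markers summed to 66.1 against 56.7, 1.17-fold (0.948 to 1.42), with Prl8a2 and Cryab at 0. The 6 immune markers had 5 UMIs, 1.44-fold (0.466 to 3.4), with Lyz2, C1qa, Cd74 and Tyrobp at 0.

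Genes known around germ cell formation were then compared between the 87 co-detecting nuclei and the other nuclei of the same accessibility clusters. Of 49 such genes in 5 lists, 43 had at least 10 UMIs observed or expected. Of these, 7 were 2-fold higher and 2 were 2-fold lower, each with an interval that excluded 1. Over all 11220 genes with such counts, 2.24% were 2-fold higher and 1.89% lower. The median ratio was 1.03 over the 43 genes and 1.01 over all genes. Among the inducing signals and their receptors, 1 of 11 was higher, T, the streak transcription factor that acts downstream of WNT, at 228 UMIs against 76.5 expected, 2.98-fold (2.61 to 3.39). Bmp4, the main inducer, had a ratio of 0.951 (0.760 to 1.18). Of the 9 partners and regulators with counts, none passed 2-fold, among them Prmt5 (0.998), a methyltransferase that partners BLIMP1, Cbfa2t2 (1.32), the co-repressor that partners PRDM14, and Otx2 (0.737, 0.584 to 0.917), known to hold cells back from the germ cell fate.

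Of the 9 pluripotency genes with counts, Nanog passed 2-fold at 2.73 (2.17 to 3.37). Sox2 had 1.85 (1.47 to 2.30), Klf5 1.85 (1.54 to 2.20) and Pou5f1 1.58 (1.38 to 1.80), and Esrrb 0.985. The median of that list was 1.58. Of the 6 surface and migration genes with counts, 3 were higher: Ifitm1, the neighbour and paralog of Ifitm3, at 2.89 (2.48 to 3.35), the receptor Kit at 2.35 (1.76 to 3.08), and Alpl, the alkaline phosphatase that stains germ cells, at 2.01 (1.55 to 2.57). Ifitm genes are alike in sequence, and how the authors' counting split such reads was not given in the sources used here. Cxcr4, a homing receptor, was lower at 0.397 (0.205 to 0.693). Of the 8 somatic genes with counts, Hoxb1 was lower, on 3 UMIs against 11.2 expected, 0.267 (0.0551 to 0.781). Fgf8 at 3.21 (2.87 to 3.59) and Cdx1 at 2.94 (1.41 to 5.40) were higher, and the mesoderm genes Mesp1 (0.599) and Snai1 (0.657) did not pass 2-fold.

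Part of these ratios fell in comparisons that took the RNA clusters into account. Against other nuclei of the same RNA clusters, Kit at 2.08 (1.55 to 2.73) and Ifitm1 at 2.77 (2.38 to 3.21) were 2-fold higher and Hoxb1 lower. T stood at 1.17, Nanog at 1.20, Cdx1 at 1.54, Alpl at 1.71 and Fgf8 at 1.73. There 1.48% of 11219 genes were 2-fold higher and 1.27% lower. With the nuclei of the cluster left out, none of the 41 list genes with counts passed 2-fold in either direction. Over all 10003 genes with such counts, 1.08% were 2-fold higher and 0.83% lower. At such shares few calls could fall among 41 genes, so nothing is read from that count. Both of these comparisons were added after the data had been seen, as were the member folds without the cluster and the peak comparison against streak and mesoderm-like nuclei.

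**Figure D4:**
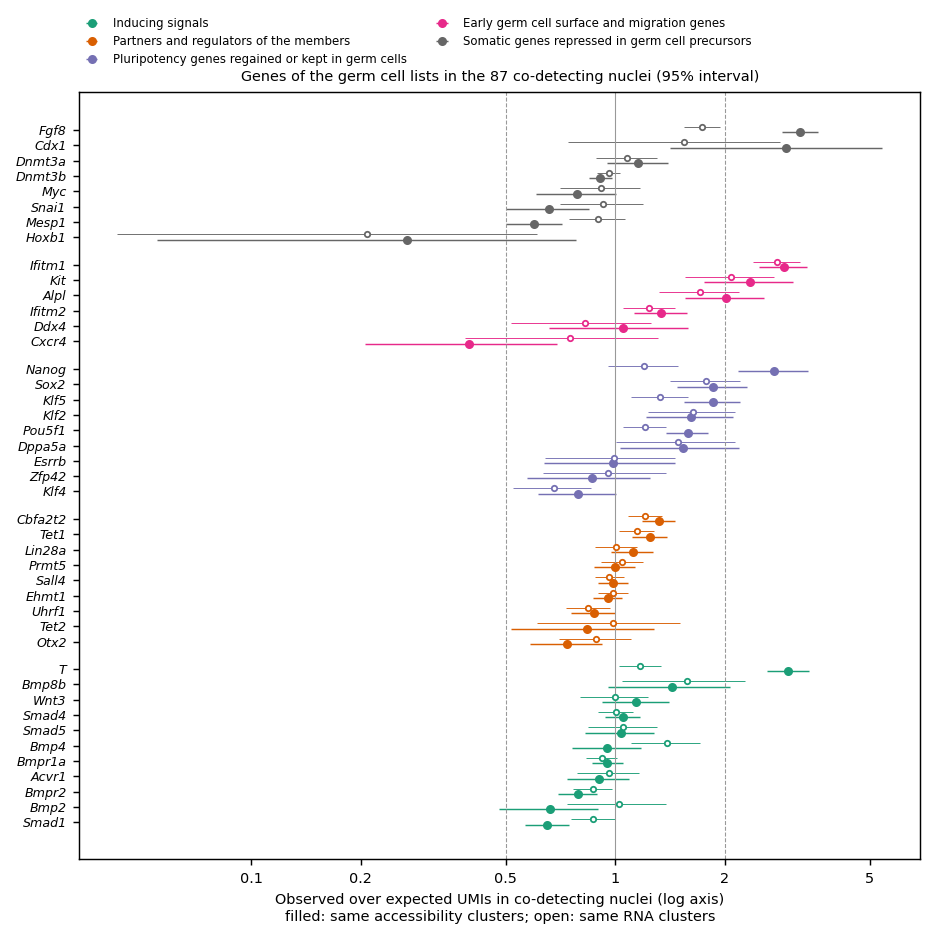
Observed over expected UMIs (log axis) of the 43 list genes with enough counts in the 87 co-detecting nuclei, with 95% intervals, expected from the same accessibility clusters (filled) or the same RNA clusters (open). Filled points of T, Nanog, Kit, Alpl, Ifitm1, Fgf8 and Cdx1 lie above 2, and only Kit and Ifitm1 stay above 2 as open points.

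Over all other genes, the 10 highest ratios in co-detecting nuclei were those of Sprr2a3 (29 UMIs, 27.6-fold, 18.5 to 39.7), Psmb8 (12.8), Cd274 (10.9), Ddx60 (10.0), Dnaaf3 (10.0), Tnni3 (8.94), Ccno (8.62), St18 (8.06), Olig2 (8.04) and Ifih1 (7.53). Sprr2a3 has near-identical neighbours, so its reads may be split among copies. Psmb8 is a subunit of the immunoproteasome, Ifih1 and Ddx60 are helicases that act in the sensing of viral RNA, and Cd274 is the ligand PD-L1. All 10 had fewer than 10 UMIs expected and were counted only through those observed. In the 122-nucleus cluster all 10 were above their level elsewhere, such as Psmb8 at 13.8 CPM against 0.465 and Ifih1 at 20.3 against 0.846. That cluster held 41 of the 87 co-detecting nuclei, so the 2 comparisons share UMIs and are not separate evidence. Single nuclei gave 15 of the 23 Cd274 UMIs, 8 of the 12 of St18 and 14 of the 49 of Dnaaf3, while Psmb8 was spread over 14 nuclei with at most 3 UMIs. Against the same RNA clusters, Ifih1 stood at 1.61 (0.937 to 2.58) and Psmb8 at 4.55 (2.70 to 7.19). The 5 lowest were Hspa12b (0 UMIs against 16.5 expected), Sh3rf3 (0.0917), Cdh8 (0.0994), L1cam (0.122) and Fendrr (0.132), a long noncoding RNA of lateral mesoderm. Fendrr is also a leading gene of the extraembryonic mesoderm-like accessibility cluster that held more co-detecting nuclei than any other.

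Peak counts took no part in making or choosing the cluster. In the 122-nucleus cluster against all other nuclei, 52 of the 171 member peaks had at least 10 fragments observed or expected. Of these, 9 were 2-fold more accessible (17.3%) and 2 less accessible. Over all 32081 peaks with such counts, 9.99% were 2-fold more and 4.13% 2-fold less accessible. The median fold was 1.29 over member peaks and 1.08 over all. Against primitive streak and mesoderm-like nuclei only, 8 of 53 member peaks passed 2-fold upward, beside 6.79% of all peaks.

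Among the 52 member peaks with enough fragments, the 4 highest folds lay outside the promoter windows. Those windows ran from 1000 bp before to 100 bp after a start. At Tfap2c a peak 26322 bp downstream of the start (chr2:172576866-172577760, mm10, inside the span of Gm36038) had 48 fragments, 39.1 FPM against 7.43, 5.27-fold (3.85 to 7.04). At Prdm1 a peak 10046 bp upstream (chr10:44468335-44469254, within the RefSeq span of Prdm1) had 24.4 FPM against 5.29, 4.62-fold (3.09 to 6.66). At Prdm14 a peak 5093 bp upstream (chr1:13131824-13132688, in no RefSeq gene) had 29.3 FPM against 7.43, 3.95-fold (2.75 to 5.51). At Dnd1 a peak 1708 bp downstream, within the gene (chr18:36764178-36764802), had 22.0 FPM against 4.09, 5.38-fold (3.51 to 7.92). Against streak and mesoderm-like nuclei alone, those folds were 3.49, 3.57, 2.29 and 5.50, in the same order. The Dnd1 peak lies near the Wdr55 gene, which overlaps Dnd1 in RefSeq, so RNA and peak of Dnd1 are uncertain in origin without strand.

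Promoter peaks varied among the members. Prdm1 had 22.0 FPM at its promoter peaks in the cluster and 24.8 elsewhere, 0.888-fold (0.584 to 1.30), and Tfap2c 40.7 against 37.5, 1.09-fold (0.805 to 1.44). Prdm14 had 1.25-fold (0.712 to 2.04) and Dnd1 1.82-fold (0.868 to 3.38). At Nanos3 the promoter peaks had 9.78 FPM against 3.06, 3.19-fold (1.64 to 5.65), on 12 fragments. Ifitm3 also had 12 fragments, 9.78 against 3.35 FPM, 2.92-fold (1.498 to 5.16), and Dppa3 8 fragments, 6.52 against 2.09 FPM, 3.12-fold (1.33 to 6.24). In a window of 2000 bp to each side the Dppa3 fold was 1.11, with 2 further peaks in the window, and that of Ifitm3 1.57 (1.16 to 2.07). The Dnd1 fold was 2.66 (1.94 to 3.56) there, with the peak at 1708 bp inside the window.

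**Figure D5:**
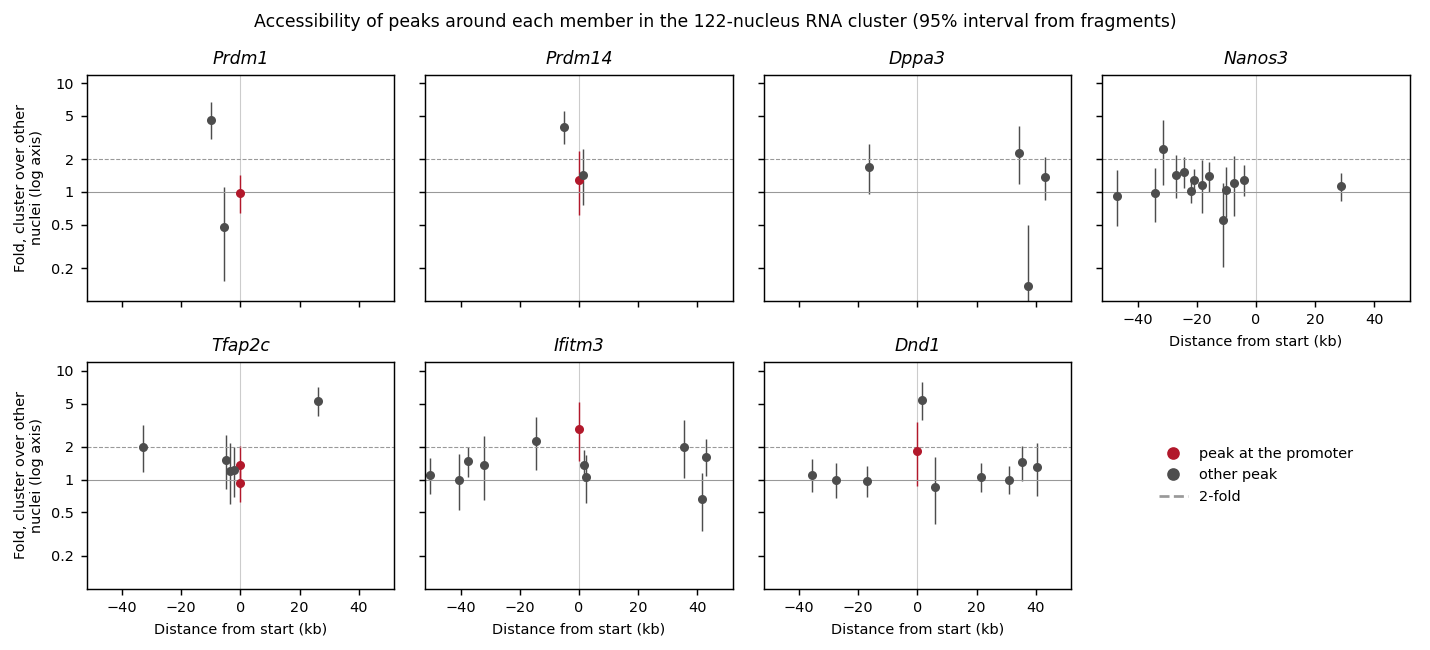
Fold of accessibility in the 122-nucleus RNA cluster over all other nuclei (log axis) against distance from the start in kb, upstream negative, for the 52 member peaks with enough fragments, with 95% intervals (1 interval at Dppa3 runs below the axis). Peaks of Prdm1, Prdm14, Tfap2c and Dnd1 stand near or above 4, each counted only through its observed fragments. The promoter peaks of Prdm1 and Tfap2c (red) lie near 1, and those of Nanos3 and Dppa3, with fewer fragments, are not drawn.

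The same windows also differed among other classes, at other peaks. In visceral endoderm-like nuclei the distal Prdm1 peaks summed to 132 FPM against 58.4, 2.26-fold (2.15 to 2.37), with the promoter at 1.09-fold. A peak 22810 bp upstream (chr10:44481105-44482012) had 18.7 FPM there against 0.877, 21.3-fold (16.8 to 27.2), and no fragment in the cluster. The peak at 5686 bp upstream was 7.12-fold higher in visceral endoderm-like nuclei. In extraembryonic ectoderm-like nuclei the distal Tfap2c peaks summed to 170 against 73.7 FPM, 2.31-fold (2.19 to 2.43), and the promoter stood at 1.60-fold. There a peak 4834 bp upstream of the starts used here (chr2:172544385-172545132) had 37.4 FPM against 4.81, 7.77-fold (6.79 to 8.88). The RefSeq span of Tfap2c begins further upstream, at chr2:172545678. The peak overlaps the 1000 bp before that position, so it is distal only to the starts used here. That peak had 11.4 FPM in the cluster, 1.52-fold (0.826 to 2.56). The peak 26322 bp downstream was also higher in extraembryonic ectoderm-like nuclei, at 3.24-fold (2.76 to 3.77).

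The Prdm14 promoter was low in extraembryonic ectoderm-like (1.18 against 11.3 FPM, 0.104-fold) and visceral endoderm-like nuclei (1.95 against 11.8, 0.166-fold). The Ifitm3 promoter was low in the same classes, at 0.160-fold on 6 fragments and 0.148-fold on 9, but at 0.552 and 0.558-fold in the window of 2000 bp to each side. The Dppa3 promoter was 3.51-fold (2.60 to 4.68) higher in extraembryonic ectoderm-like nuclei, and 1.39-fold (1.14 to 1.68) in the wider window. Its RNA in that same RNA class had 0.0622 CPM on 1 UMI. Near Dppa3 a peak 39870 bp downstream was 17.9-fold higher in visceral endoderm-like nuclei. Near Ifitm3 a peak 29934 bp downstream, closest to the start of Ifitm1, was 37.8-fold (27.6 to 52.4) higher in extraembryonic ectoderm-like nuclei. At Nanos3 and Dnd1, the distal peaks with the most counts were nearest to the starts of Gm26887 and Tmco6, and other starts lie in both windows.

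Accessibility was also read by nucleus rather than by cluster. Over all 171 member peaks, the co-detecting nuclei had 1.05 times (0.996 to 1.11) the fragments expected from other nuclei of the same RNA clusters. Of the 44 peaks with counts, 7 were 2-fold higher and 2 lower, beside 3.90% and 2.36% of 26490 peaks. They included the Dnd1 peak at 1708 bp, 3.36-fold (2.15 to 4.99) on 24 fragments, and the Prdm1 peak 10046 bp upstream, 2.52-fold (1.63 to 3.72). Nuclei with a UMI of a given member had 1.06 times (0.980 to 1.14) the expected promoter fragments for Prdm1 and 1.12 times (1.06 to 1.19) for Tfap2c. For the other 5 members those intervals included 1.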

How the data were processed

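Nuclear RNA and accessible chromatin had been measured in the same nuclei, in 1 library each. The deposited values were whole-number counts with no normalization, UMIs per gene and cut counts per peak in 1 matrix, written by cellranger-arc 2.0.0 per the file headers. The build was mm10 and the tool Cell Ranger ARC 2.0.0, per the submitters' processing notes, and the sources used here did not give the peak caller or the strand setting. Fragments were estimated as the count divided by 2, rounded up.

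Scrublet, run through scanpy 1.11.5 with the doublet rate set to 0.1, called doublets. RNA (2000 variable genes without the members, 30 components) and peaks (without the member peaks, seen in at least 50 nuclei, TF-IDF) were clustered apart with leidenalg 0.10.2 at resolution 1, which gave 22 and 19 clusters. A cluster was named from marker lists: the leading list needed a mean log2 ratio of (CPM + 1) of at least 0.5, with 3 markers raised 1.5-fold on at least 50 UMIs, and no other list could hold more of the 10 leading genes. Named clusters held 85.6% of nuclei by RNA and 77.1% by accessibility. Expected UMIs were the rates of the other nuclei of the same clusters times the UMI totals, with the expectation taken as exact, and this calculation was tested on simulated data. A gene or peak was counted with at least 10 observed or expected, and called past 2-fold. One with fewer than 10 expected was thus counted only if its observed number was higher.

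The members, the lists and the naming rule were chosen with earlier results of these data known, and none of them is independent evidence. Named genes were the members, list genes past 2-fold, the 10 highest and 5 lowest other genes, the 3 genes closest to each member with at least 200 UMIs, and for each member its promoter peak, its distal peak with the most counts and the one with the highest class fold on at least 50 counts. Of the genes this rule takes, 1 is not reported here. The distal peak with the highest fold in the cluster was added after values were seen. Promoters ran from 1000 bp before to 100 bp after a start, with strand taken from RefSeq. Alternatives were other filters, resolutions, detection limits and comparison groups. All 15341 barcodes were shared by both libraries, as both assays were read from each nucleus. Exon and intron annotation was not used here.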

Additional observations from a re-analysis of the deposited data

How the results depend on the processing

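The share of nuclei with at least 3 members, 0.680%, was 0.746% at 2000 UMIs and 2000 peak counts, 0.979% with doublet calls kept, 0.919% over all barcodes, 0.133% when 2 UMIs were needed, 0.224% after thinning, 0.172% for 4 of 7 members and 0.188% for 3 of the 5 members without Ifitm3 and Dnd1. The extraembryonic mesoderm-like share of co-detecting nuclei, 43.7%, was 2.30% with accessibility clusters at resolution 2 and 3.45% with RNA clusters. There the number of members 2-fold higher in that class was 1 in place of 4, and it was also 1 without the 122-nucleus cluster. The Prdm1 fold turned from 1.42 to 0.238 at resolution 2, to 0.220 with RNA clusters and to 0.436 without the cluster. The Dppa3 fold turned to 0, 0 and 0.437 and the Dnd1 fold to 0.515, 0.554 and 0.924 in the same order, where 0 means no UMI in the class. The intervals of these Dppa3 and Dnd1 values all included 1. The Tfap2c fold moved from 0.633 to 0.272, 0.228 and 0.287, the Prdm14 fold from 10.8 to 3.03, 3.26 and 5.33, and the Ifitm3 fold from 4.17 to 1.06, 1.10 and 1.67. The cause was not tested. At resolution 0.5, and for the folds also at 2000 UMIs and 2000 peak counts, no cluster had that name and no value was given. Prdm1 in visceral endoderm-like and anterior streak, node and definitive endoderm-like nuclei kept its direction under every alternative that was run. So did Tfap2c in both trophoblast classes, but the sizes moved. The Tfap2c fold in ectoplacental cone and giant cell-like nuclei, 23.4, was 12.02 with RNA clusters and 15.55 with doublet calls kept, where it was 4.16 in extraembryonic ectoderm-like nuclei in place of 6.55. The RNA class of the former name had 13 nuclei in place of 140, and an unnamed RNA cluster of 439 nuclei had 443 CPM of Tfap2c, 16.1-fold. The Prdm1 fold in visceral endoderm-like nuclei, 3.79, was 6.77 at resolution 0.5.

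List genes 2-fold higher and lower, 7 and 2 of 43, became 6 and 1 of 42 against all other nuclei (2.37% and 1.98% of all genes tested). They were 11 and 6 of 34 for 4 of 7 members (5.96% and 6.61% of all genes), 9 and 5 of 34 for 3 of 5 (4.53% and 3.83%), and 8 and 4 of 49 with no filter on low counts (7.41% and 38%). They were 6 and 0 of 44 with doublet calls kept (3.19% and 2.23%), 2 and 1 of 43 within RNA clusters, and 0 and 0 of 41 without the cluster (1.08% and 0.83%). Member peaks in co-detecting nuclei moved from 1.05 to 1.19 for 4 of 7 members and 1.13 against all other nuclei. The RNA cluster with the most co-detecting nuclei had 9 of 52 member peaks 2-fold higher on 122 nuclei. It was another set of nuclei under other settings, with 6 of 170 such peaks on 1634 nuclei at resolution 0.5 (2.62% of all peaks tested), 9 of 56 on 144 at resolution 2 (9.72%) and 8 of 130 on 623 with doublet calls kept (5.63%). No paired analysis was possible because each assay had 1 library and so no replicates to pair, although both assays were read in the same nuclei. Dppa3 and Nanos3 had the fewest UMIs of the members, 63 and 100 in all.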

Other observations

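Genes outside the lists, chosen after their values were seen, also differed. Igfbp3, an insulin-like growth factor binding protein and a leading gene of the 122-nucleus cluster, had 192 UMIs in the co-detecting nuclei against 30.6 expected from the same accessibility clusters, 6.26-fold (5.41 to 7.22) in 49 nuclei. The GTPase gene Irgm1 stood at 4.58-fold (3.13 to 6.47) and the ubiquitin ligase gene Rnf213 at 4.08-fold (3.33 to 4.95). Over all 11220 genes with enough counts, 2.24% were 2-fold higher. Like Igfbp3, both are among the 10 leading genes of that cluster, which held 41 of the 87 co-detecting nuclei. These ratios thus largely repeat that ranking, and nothing further is read from them. Igfbp3 was also the gene whose level over the accessibility clusters followed Dnd1 most closely (Pearson r 0.816 over 19 clusters).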
